A study of Mus musculus with 6 samples.

Results

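The genes described are 10 members of the Toll-like receptor system, chosen by gene symbol from the 19225 genes with a value, namely 7 receptors (*Tlr1*, *Tlr2*, *Tlr3*, *Tlr4*, *Tlr7*, *Tlr9* and *Tlr13*), the co-receptor genes *Cd14* and *Ly86*, and the adaptor gene *Myd88*. All 10 were found. They were measured in microglia, enriched as CD11b+ cells with magnetic beads from the brains of male mice that had not been stressed, with 1 library of 3′ mRNA ends per mouse. The 3 control mice are labelled *Cnr1*+/+ (genotype wt/wt, strain C57BL6/J) and the 3 mice labelled as lacking the cannabinoid receptor CB1 are *Cnr1*-/- (genotype d/d, strain Cnr1 tm1Zim). In this constitutive knockout, a neomycin cassette interrupts the coding region of *Cnr1* in every cell of the body, so that the microglia are not the only cells without CB1. The labels give an age of 3 months for all 6 mice, whereas the methods give a younger age for the mice of the study and describe littermates on a C57BL/6J background. Values are the authors' TMM-scaled cpm, a read count relative to the scaled size of its library. Each library is a mixture of the cells in the fraction, so fewer cells of a type and less RNA per cell cannot be told apart.

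Toll-like receptors are sensors of the innate immune system that recognise conserved parts of microbes, as well as some molecules released by damaged cells. TLR1, TLR2 and TLR4 sit on the cell surface and bind lipoproteins and lipopolysaccharide, while TLR3, TLR7, TLR9 and TLR13 sit in endosomes and bind nucleic acids. Except for TLR3, which uses the adaptor TRIF, these receptors pass their signal on through the adaptor MyD88, leading to activation of NF-κB and interferon regulatory factors. Microglia are the main cells of the brain parenchyma that carry this system.

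The smallest step between values put the scaled library sizes between 7708793 and 10723822 reads, at which every member but *Tlr9* had between 104 and 1672 reads. The 14 microglia markers summed to 18050 to 20958 cpm, with overlapping groups. The library labelled *Cnr1*-/- replicate 2 stood apart, as its 11 listed neutrophil markers reached 4117 cpm where the other 5 libraries had 270.2 to 532 cpm, and its 5 erythrocyte markers reached 2330 cpm where the others had 136 to 237 cpm. For the 6 monocyte markers these values were 109 cpm and 31.0 to 36.3 cpm. For *Cnr1* itself, 0 reads were found under the label *Cnr1*+/+ and 13, 13 and 15 reads under the label *Cnr1*-/-, which goes against the labels. Per the methods, the mice were genotyped by PCR, and the paper describes CB1 as hardly expressed by microglia. Exchanged labels and reads from the 3′ end of the disrupted allele cannot be told apart, so every direction below is that of the libraries as labelled.

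RefSeq (GRCm38.p6) gave a window of 250 bases before to 50 bases after the start for 7 of the 10 members. Those of *Ly86* and *Tlr13* are printed because these genes were higher in all libraries labelled *Cnr1*-/-, and that of *Tlr2* because its values overlapped. The RefSeq starts of the printed genes lie inside the genes as placed below, so part of each window before the start does too. Capitals mark matches on either strand to GAGGAA, which holds the core of the site of PU.1, a lineage factor of microglia, and to a kappa B site for NF-κB, searched as GGG, any 5 bases and CC. The TATA box (TATAAA) and a site of interferon regulatory factors (GAAA, any 2 bases and GAAA) were searched in the same way, and matches could overlap.
Ly86 (chr13:37345095-37345394, plus strand): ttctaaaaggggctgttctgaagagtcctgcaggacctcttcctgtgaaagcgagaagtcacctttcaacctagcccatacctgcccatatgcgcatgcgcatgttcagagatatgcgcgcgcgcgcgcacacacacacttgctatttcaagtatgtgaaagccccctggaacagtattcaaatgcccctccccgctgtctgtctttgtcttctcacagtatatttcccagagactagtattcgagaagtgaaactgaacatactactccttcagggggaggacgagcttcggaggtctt
Tlr13 (chrX:106143025-106143324, plus strand): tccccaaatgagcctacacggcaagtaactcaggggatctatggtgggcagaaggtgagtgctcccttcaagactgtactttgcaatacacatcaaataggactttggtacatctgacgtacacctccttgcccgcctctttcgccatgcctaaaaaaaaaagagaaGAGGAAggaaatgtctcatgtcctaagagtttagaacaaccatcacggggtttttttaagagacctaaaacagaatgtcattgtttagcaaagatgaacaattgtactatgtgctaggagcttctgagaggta
Tlr2 (chr3:83841559-83841858, minus strand): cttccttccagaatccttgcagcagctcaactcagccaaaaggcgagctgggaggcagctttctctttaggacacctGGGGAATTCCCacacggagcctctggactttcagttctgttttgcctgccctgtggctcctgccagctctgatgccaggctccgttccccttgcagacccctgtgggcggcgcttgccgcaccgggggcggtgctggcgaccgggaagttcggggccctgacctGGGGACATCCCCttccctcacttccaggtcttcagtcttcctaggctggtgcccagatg
None of the 4 motifs was found in the window of *Ly86*. The window of *Tlr13* held 1 GAGGAA match, whose first base is at position -83 from the start site, and that of *Tlr2* held 2 stretches of overlapping kappa B matches. Such matches are common, as 28.3% of the 32851 promoter windows of this length hold GAGGAA and 50.8% hold the kappa B letters. The letters of the TATA box were found in 13.6% of all windows and the interferon regulatory factor site in 3.44%, and the window of *Myd88* held both. Its matches to TATAAA had their first base at positions -160 and, on the other strand, -164 from the start site.

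The members differed widely in their level. In a library of 3′ ends a transcript gives reads from its end rather than along its length, so cpm values were compared between genes without division by length, although priming can differ between genes. *Cd14* and *Ly86* had the highest means over the 6 libraries, with 118 and 112 cpm, and did not differ in order, since *Cd14* was above *Ly86* in 3 of 6 libraries. They were followed by *Tlr7* with 80.0 cpm and *Tlr13* with 53.7 cpm, each above the next gene in 6 of 6 libraries. *Myd88* had 38.7 cpm and *Tlr3* 34.9 cpm, and again the former was higher in only 3 of 6 libraries. The surface receptors were lower, at 25.6 cpm for *Tlr2*, 22.5 cpm for *Tlr4* and 16.8 cpm for *Tlr1*. *Tlr2* exceeded *Tlr4* in 4 of 6 libraries, whereas *Tlr4* exceeded *Tlr1* in all 6. The endosomal receptors thus made up most of the receptor reads in every library, between 67.9% and 75.2% of the summed cpm of the 7 receptors. *Tlr7* alone held between 31.9% and 37.8%.

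**Figure D1:**
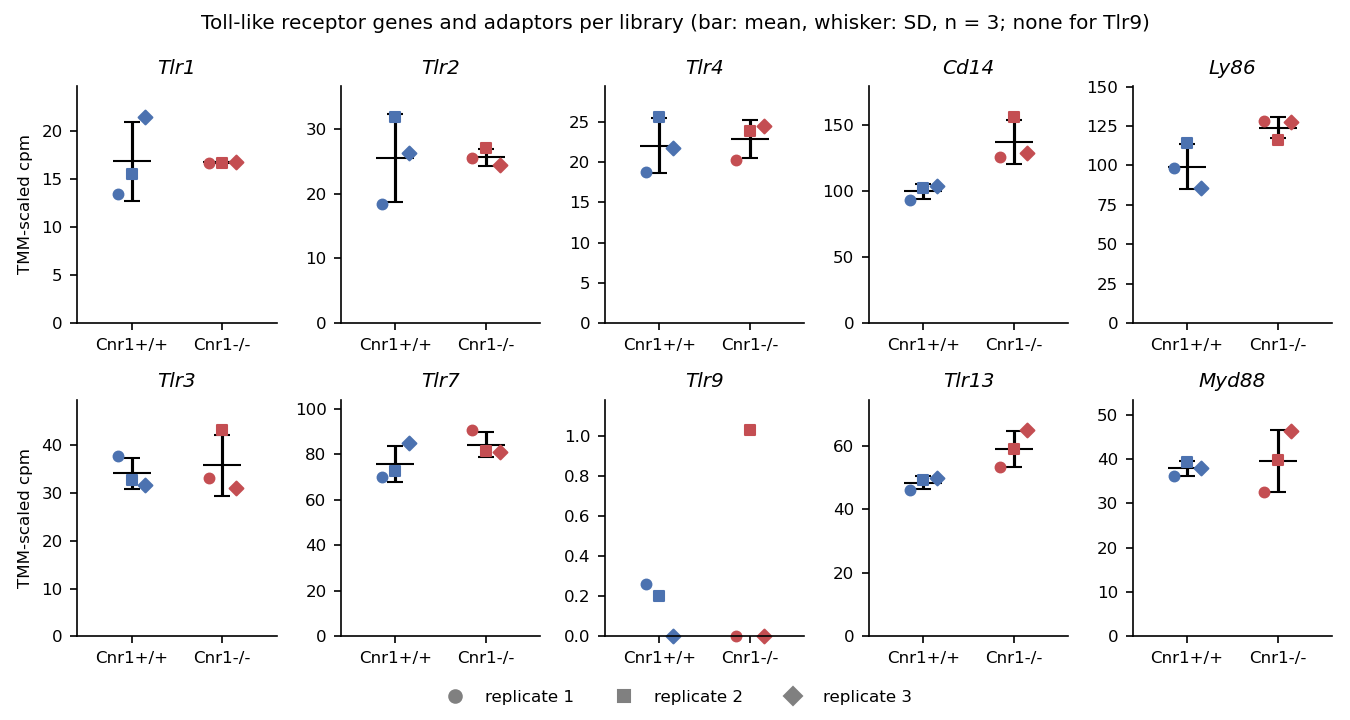
TMM-scaled cpm (vertical axes, starting at 0) of the 10 genes in the 3 libraries labelled *Cnr1*+/+ (blue) and the 3 labelled *Cnr1*-/- (red). Symbols are replicates, horizontal bars means and whiskers SD (n = 3), which are left out for *Tlr9*. The red points lie above all blue points for *Cd14*, *Ly86* and *Tlr13*, and the groups overlap in the other panels.

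To ask whether loss of CB1 alters these genes in unstressed microglia, the libraries were compared by genotype label with limma on log2 (cpm + 0.1), fitted to the 6659 genes whose mean reached 10 cpm. The co-receptor genes *Cd14* and *Ly86* were higher in the libraries labelled *Cnr1*-/- at a nominal p under 0.05, and no member was lower at that threshold. Among all genes tested, 5.09% were higher at this threshold and 0.931% were lower. None of the 9 members tested reached an adjusted p under 0.1, where 0.105% of all genes tested did and 0.0901% also had a fold over 1.5 (2 members passed the nominal threshold, which 6.02% of all genes tested passed). For 3 members, *Cd14*, *Ly86* and *Tlr13*, the values of the genotype labels did not overlap, with those labelled *Cnr1*-/- above, as was the case for 8.85% of the genes tested. All 9 log2 fold changes were positive, with a median of 0.06. This has to be read against all genes tested, of which 68.4% were positive, with a median of 0.08. When each library was centred on its median, and likewise under the other scalings tried, 4 of the 9 were positive, which were *Cd14*, *Ly86*, *Tlr13* and *Tlr7*.

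*Cd14* encodes a co-receptor that delivers lipopolysaccharide to TLR4 and also assists other receptors of the family. It lies on chromosome 18 of mm10 (36725067 to 36726798, minus strand). Its level was 92.9, 102 and 103 cpm under the label *Cnr1*+/+ (here and below in the order of replicates 1 to 3) and 126, 156 and 129 cpm under the label *Cnr1*-/-. Every library labelled *Cnr1*-/- lay above every library labelled *Cnr1*+/+, and the highest was replicate 2. The group means were 137 ± 16.7 cpm and 99.5 ± 5.76 cpm (SD, n = 3 each), a difference of 37.4%. The log2 fold change was 0.45 (standard error 0.130, 95% interval 0.19 to 0.72). In limma the nominal p was 0.00176 and, after adjustment, 0.478, while the two-sided exact permutation test gave p = 0.1, the smallest that 3 against 3 libraries allow.

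Blood cells such as neutrophils and monocytes also express *Cd14*, and the library with the highest value is the one with the high neutrophil, monocyte and erythrocyte markers. Without it, the log2 fold change was 0.36 (limma adjusted p = 0.999, still called at the nominal threshold), and the other values labelled *Cnr1*-/-, 126 and 129 cpm, were still above 103 cpm. Over the 16 alternative settings, the log2 fold change stayed between 0.35 and 0.51, the nominal p between 0.00156 and 0.0243, and the adjusted p between 0.324 and 0.999. The part of these blood cells in the value of replicate 2 was not tested. Markers of border-associated macrophages, which also express *Cd14*, summed to 97.6 to 125 cpm under the label *Cnr1*+/+ and to 77.4 to 100.3 cpm under the label *Cnr1*-/-, with overlap and the lowest sum in replicate 2.

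*Ly86* encodes MD-1, a secreted protein that binds lipids and pairs with CD180, a relative of TLR4 that lacks the intracellular signalling domain. It lies on chromosome 13 (37345208 to 37419036, plus strand), and its promoter is printed above. Its level was 98.1, 114 and 85.9 cpm under the label *Cnr1*+/+ and 128, 116 and 127 cpm under the label *Cnr1*-/-. The groups did not overlap, but *Cnr1*-/- replicate 2 with 116 cpm and *Cnr1*+/+ replicate 2 with 114 cpm were close. The means were 124 ± 6.80 cpm and 99.3 ± 14.05 cpm (SD, n = 3 each). On the log2 scale the difference was 0.33 with a standard error of 0.134 (limma nominal p = 0.0207, adjusted p = 0.792, exact permutation p = 0.1). Over the 16 alternative settings the log2 fold change of *Ly86* lay between 0.23 and 0.43, and it passed the nominal threshold in 9 of them. When libraries were brought to equal totals, leaving out mitochondrially encoded genes, *Cnr1*-/- replicate 2 had 107 cpm and lay below 2 of the libraries labelled *Cnr1*+/+, with 108 and 116 cpm.

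The partner of MD-1 differed in the other direction. *Cd180* had 43.7, 40.4 and 36.4 cpm under the label *Cnr1*+/+ and 30.6, 30.4 and 33.9 cpm under the label *Cnr1*-/-. All libraries labelled *Cnr1*-/- were lower, as for 2.13% of the genes tested. On the log2 scale the difference was -0.34 with a standard error of 0.165 (limma nominal p = 0.0481, adjusted p = 0.825, exact permutation p = 0.1). It passed the nominal threshold in 8 of 16 alternative settings, and the log2 fold change lay between -0.44 and -0.28.

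Within a library, a ratio of 2 genes does not depend on how the library was scaled. The ratio of *Ly86* to *Cd180* was 2.24, 2.82 and 2.36 in the libraries labelled *Cnr1*+/+ and 4.19, 3.82 and 3.76 in those labelled *Cnr1*-/-. It was thus 3.93 ± 0.231 against 2.47 ± 0.305 (SD, n = 3 each) and did not overlap, which follows from *Ly86* being higher and *Cd180* lower in every library labelled *Cnr1*-/-. The ratio of *Cd14* to *Tlr4* was 4.94, 3.99 and 4.74 against 6.21, 6.53 and 5.24, also without overlap, although the last value was close to the first group. In contrast, the ratio of *Tlr4* to *Ly96*, which encodes the lipopolysaccharide-binding partner MD-2, overlapped, with means of 2.04 ± 0.381 and 1.91 ± 0.102 (SD, n = 3 each). The ratio of *Cd14* to *Ly96* overlapped as well, at 11.9, 8.21 and 7.86 against 12.6, 12.1 and 9.72, as did those of *Tlr1* to *Tlr6* and of *Tlr13* to *Tlr7*. These pairs were chosen after the values were seen and were not tested.

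**Figure D2:**
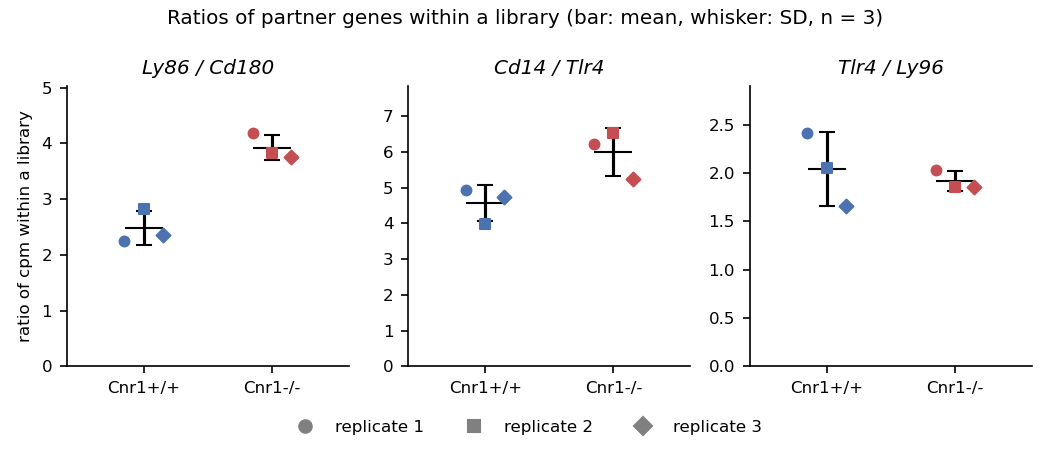
Ratio of the cpm of 2 partner genes within each library (vertical axes, starting at 0) for the libraries labelled *Cnr1*+/+ (blue) and *Cnr1*-/- (red); symbols are replicates, bars means and whiskers SD (n = 3). *Ly86* to *Cd180* and *Cd14* to *Tlr4* separate the labels, and *Tlr4* to *Ly96* does not.

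The surface receptor genes had near-equal means in both groups, and the spread was mostly on the side labelled *Cnr1*+/+. *Tlr4*, the receptor for lipopolysaccharide (chromosome 4, 66827584 to 66930284), had 18.8, 25.6 and 21.8 cpm under the label *Cnr1*+/+ and 20.2, 23.9 and 24.6 cpm under the label *Cnr1*-/-. The values were interspersed, and the log2 fold change was 0.06 with a 95% interval from -0.35 to 0.46 (limma adjusted p = 0.982). *Tlr2*, which recognises bacterial lipoproteins (chromosome 3, 83836272 to 83841767), had 18.4, 31.9 and 26.3 cpm against 25.5, 27.04 and 24.4 cpm. Both the lowest and the highest value belonged to libraries labelled *Cnr1*+/+, and the log2 fold change was 0.04 (95% interval -0.37 to 0.46, limma adjusted p = 0.986).

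*Tlr1*, which forms a heterodimer with TLR2 (chromosome 5, 64924679 to 64933563), had 13.5, 15.6 and 21.5 cpm under the label *Cnr1*+/+ and 16.7, 16.7 and 16.8 cpm under the label *Cnr1*-/-. The SD was 4.15 cpm in the first group and 0.0714 cpm in the other, whose values lay between both ends of the first. The log2 fold change was 0.02 (95% interval -0.45 to 0.48, limma adjusted p = 0.995). *Tlr6*, the other heterodimer partner of TLR2, is a close paralogue, and the authors' quantification can divide reads that match both. Both genes had fractions of a read in the same 3 libraries, such as 204.4 for *Tlr1* and 181.6 for *Tlr6* in *Cnr1*+/+ replicate 3, so the split between them is uncertain. *Tlr6* had 14.9, 9.98 and 19.1 cpm against 19.9, 21.4 and 18.5 cpm. The groups overlapped through *Cnr1*+/+ replicate 3, and the difference was 0.48 on the log2 scale (standard error 0.238, limma adjusted p = 0.825); this gene was chosen after its values were seen. *Tlr6* passed the nominal threshold in 3 of 15 alternative settings.

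Of the endosomal receptors, *Tlr13* came closest to a difference. It encodes a receptor for bacterial ribosomal RNA and lies on chromosome X (106143204 to 106160493). It had 45.9, 49.3 and 49.7 cpm under the label *Cnr1*+/+ and 53.4, 58.9 and 64.8 cpm under the label *Cnr1*-/-, without overlap. Its spread within groups was small, with a pooled SD of 0.108 on the log2 scale, smaller than in all but 8.45% of the genes tested. The log2 fold change of 0.28 (standard error 0.148, 95% interval -0.02 to 0.59) missed the nominal threshold (limma nominal p = 0.0653, adjusted p = 0.829, exact permutation p = 0.1). It did so in all 16 alternative settings as well, where the log2 fold change lay between 0.19 and 0.35. With equal totals, leaving out mitochondrially encoded genes, the groups still did not overlap, with 49.2 to 50.6 cpm against 54.5 to 61.9 cpm.

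*Tlr7*, a receptor for single-stranded RNA on chromosome X (167304929 to 167330558), had 69.9, 72.8 and 84.8 cpm under the label *Cnr1*+/+ and 90.5, 81.3 and 80.9 cpm under the label *Cnr1*-/-. The groups overlapped through *Cnr1*+/+ replicate 3, and the log2 fold change was 0.15 (95% interval -0.13 to 0.44, limma adjusted p = 0.908). *Tlr3*, a receptor for double-stranded RNA on chromosome 8 (45395665 to 45411080), had 37.7, 32.7 and 31.8 cpm against 33.1, 43.1 and 31.1 cpm. Its highest and its lowest value both belonged to libraries labelled *Cnr1*-/-, and the log2 fold change was 0.06 (95% interval -0.30 to 0.42, limma adjusted p = 0.981).

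*Tlr9*, a receptor for unmethylated CpG DNA on chromosome 9 (106222598 to 106226883), was at the limit of detection. It was listed at 2, 2 and 0 reads in the libraries labelled *Cnr1*+/+ and at 0, 11 and 0 reads in those labelled *Cnr1*-/-. Values of 0 to 2 reads do not exceed what a count of 0 allows, which is 3 reads or between 0.280 and 0.389 cpm. Only *Cnr1*-/- replicate 2, the library with the high blood cell markers, lay above, at 1.03 cpm. *Tlr9* was below the minimum mean and was not tested.

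*Myd88*, the shared adaptor (chromosome 9, 119335934 to 119341411), had 36.2, 39.4 and 38.1 cpm under the label *Cnr1*+/+ and 32.6, 39.7 and 46.4 cpm under the label *Cnr1*-/-. The libraries labelled *Cnr1*-/- held both the lowest and the highest value, and the log2 fold change was 0.05 (95% interval -0.30 to 0.39, limma adjusted p = 0.982). *Acaa1a* overlaps the gene on the opposite strand, at the starts of both genes, and had 19.8 to 28.4 cpm. Its 3′ end, at 119350299, lies outside *Myd88*, and a library of 3′ ends gives reads mainly from there. *Slc22a14* spans *Myd88* on the same strand (119169455 to 119365553) and is not among the listed genes. Whether the quantification used strand is not given in the sources used here. For *Tlr1*, *Tlr2*, *Tlr3*, *Tlr4*, *Tlr7* and *Myd88*, the upper bounds of the 95% intervals correspond to fold changes between 1.31 and 1.40 and the lower bounds to between 0.734 and 0.915.

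**Figure D3:**
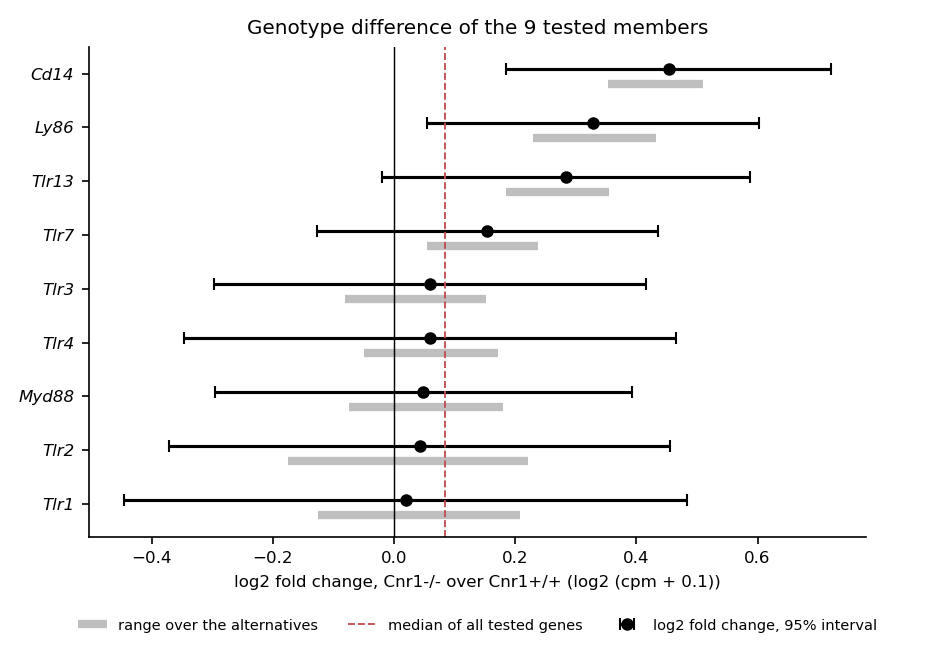
Log2 fold change of the libraries labelled *Cnr1*-/- over those labelled *Cnr1*+/+ (horizontal axis) for the 9 tested genes, with 95% intervals from limma (points and whiskers) and the range of the fold change over the alternative settings (grey bars). Only the intervals of *Cd14* and *Ly86* lie above 0; the dashed line is the median of all genes tested, 0.08.

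The composition of the receptor family overlapped between the groups. *Tlr13* made up 21.7 ± 0.684% of the summed receptor cpm in the libraries labelled *Cnr1*+/+ and 24.1 ± 2.30% in those labelled *Cnr1*-/-, and *Tlr7* 34.0 ± 2.02% and 34.5 ± 2.93% (SD, n = 3 each). For each of the 7 receptors the shares overlapped between the groups. The summed cpm of the receptors was 205, 228 and 236 in the libraries labelled *Cnr1*+/+ and 240, 252 and 243 in those labelled *Cnr1*-/-, without overlap. However, the share of the scaled total held by all listed genes together also ranged higher in the latter, at 53.5% to 59.1% against 50.1% to 54.3%, with overlap. With the equal totals described above, the summed receptor values overlapped, at 225 to 233 and 232 to 245 cpm. The library labelled *Cnr1*+/+ replicate 1, which had the smallest listed total, held the lowest value of 6 of the 9 members tested.

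**Figure D4:**
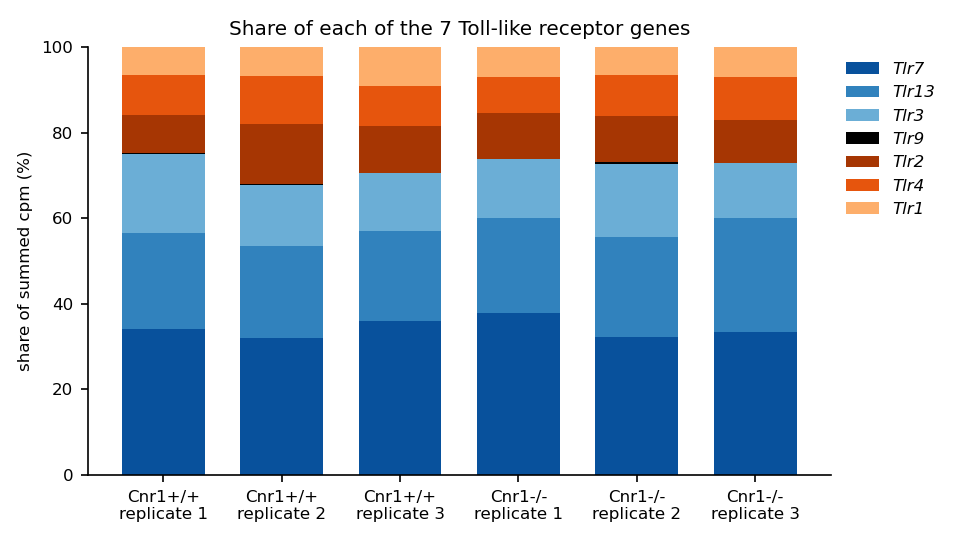
Share of each of the 7 receptor genes in their summed cpm (vertical axis, percent) in each library. The blue and black parts are the endosomal receptors, which hold between 67.9% and 75.2%, and the orange parts the surface receptors.

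To place the members in their pathway, 45 further genes were grouped by role, of which 42 were among the listed genes and 27 were tested. *Irf5* was higher and *Cd180* was lower at a nominal p under 0.05, and 0 of the 27 had a limma adjusted p under 0.1 (2 of the 27 passed the nominal threshold, or 7.41%, where 6.02% of all genes tested did). The median log2 fold change was 0.12, and 20 were positive and 7 negative. After centring each library on its median, 14 of the 27 were positive.

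*Irf5*, a transcription factor that acts downstream of MyD88, had 80.7, 102 and 97.3 cpm under the label *Cnr1*+/+ and 116, 135 and 112 cpm under the label *Cnr1*-/-. The groups did not overlap, and the difference was 0.38 on the log2 scale (standard error 0.135, limma nominal p = 0.00883, adjusted p = 0.690, exact permutation p = 0.1). It passed the nominal threshold in 15 of 16 alternative settings, the exception being the fit without the library labelled *Cnr1*-/- replicate 2, which had its highest value and is the library with the high neutrophil, monocyte and erythrocyte markers. In that fit the log2 fold change was still 0.30 with a standard error of 0.158, the remaining values did not overlap, and the part of the blood cells was not tested. The log2 fold change lay between 0.28 and 0.45 over all these settings. *Irf3*, which acts downstream of TRIF, differed by 0.04 on the log2 scale (limma adjusted p = 0.986), and *Irf7* was below the minimum mean, with 1.73 to 9.54 cpm.

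The other roles held no gene that passed the nominal threshold. Among the genes that carry endosomal receptors to their place or cleave them, the most abundant were *Ctss* (cathepsin S) with 2298 cpm and *Lgmn* (legumain) with 830.4 cpm over all libraries, and 0 of 6 passed, with log2 fold changes of 0.17 and 0.07 for these. *Unc93b1*, the chaperone that escorts endosomal receptors out of the endoplasmic reticulum, differed by 0.18 on the log2 scale (standard error 0.126) and was chosen after its values were seen. Of the 18 adaptors and kinases, 12 were tested and 0 passed. *Tab2* was the most abundant, at 165 cpm, with a log2 fold change of 0.01, followed by *Pik3ap1* at 61.6 cpm with 0.17. *Ikbkg*, which encodes the regulatory subunit of the IκB kinase complex and was chosen after its values were seen, had the largest log2 fold change of these 12 genes, 0.55 (standard error 0.290, limma adjusted p = 0.838). Its groups overlapped, its limma nominal p was 0.0688, and it passed the nominal threshold in 2 of 15 alternative settings. The study's own test listed *Ikbkg* with a nominal p under 0.05, so this call depends on the fit. Of the tested genes that restrain the pathway, *Rnf216* and *Cyld* were the most abundant, at 43.6 and 28.7 cpm, and 0 of 3 passed. *Tlr12*, a further endosomal receptor, had 27.4 cpm and differed by -0.16 on the log2 scale (standard error 0.181). *Ly96* had 11.6 cpm and differed by 0.14 (standard error 0.277).

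A further 15 genes of the list were below the minimum mean and were not tested. These were *Tlr5*, *Lbp*, *Cd36*, *Tril*, *Ticam1*, *Traf3*, *Traf6*, *Tab1*, *Tab3*, *Ikbke*, *Irf7*, *Irak3*, *Sarm1*, *Tnfaip3* and *Socs1*. Of these 15, 1 was lower and 1 was higher in all libraries labelled *Cnr1*-/-. Among the genes tested, which have higher means, 2.13% and 8.85% were. The share among genes below the minimum mean was not computed. *Traf3* had 8.30, 9.38 and 12.8 cpm under the label *Cnr1*+/+ and 7.90, 6.53 and 5.49 cpm under the label *Cnr1*-/-, all lower. *Tab1* had 5.32, 4.19 and 2.84 cpm against 5.74, 8.21 and 7.75 cpm, all higher, and passed the nominal threshold when all genes were tested with no minimum mean. *Ticam1*, which encodes TRIF, had between 5.89 and 9.86 cpm with overlapping groups. *Tlr8*, *Tlr11* and *Sigirr* were not among the listed genes and so could not be analysed.

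**Figure D5:**
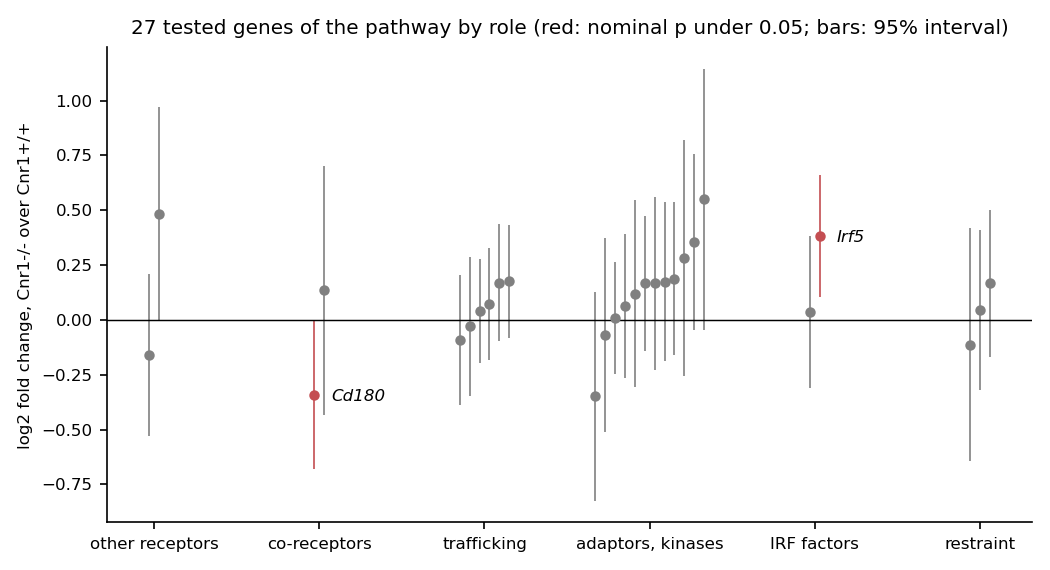
Log2 fold change of the libraries labelled *Cnr1*-/- over those labelled *Cnr1*+/+ (vertical axis) with 95% intervals for the 27 tested pathway genes, grouped by role. Genes with a nominal p under 0.05 are red: *Cd180* at -0.34 and *Irf5* at 0.38.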

How the data were processed

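RNA of CD11b+ cells from 6 mice was sequenced by the authors with a 3′ mRNA kit, 1 library per mouse. Per the methods, they trimmed the reads, aligned them to mm10 with STAR and divided reads between Ensembl transcripts by expectation-maximisation in Partek Flow. The deposited values are CPM with TMM scaling; between 83.9% and 86.3% of the values below 50 reads were whole multiples (within 0.02 reads) of the value of 1 read, so no count test was used. Groups come from the sample labels. Genotype was the only term of a limma fit (version 3.58.1, R 4.3.3, eBayes with a trend) to log2 (CPM + 0.1) of genes whose mean reached 10 CPM, with Benjamini-Hochberg adjustment over all genes tested. A fold over 1.5 at an adjusted p under 0.1 is the threshold of the study, and a nominal p under 0.05 was used beside it. Fold changes on this scale understate those of low genes. Single genes were also compared by a two-sided exact permutation test. The fit was tested on simulated data.

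The 10 genes and all lists were chosen with earlier results of these data known. Named were the 10 genes and, of each role list, genes with a nominal p under 0.05, the most abundant genes and those below the minimum mean; others were chosen after their values were seen. Ends of genes in the deposited table lie 1 base past the last base, and positions were given as in GENCODE. Promoter sequences are those of RefSeq. The 95% intervals come from limma and rest on the spread between libraries, whereas the limit of 3 reads covers counting error only. Figures were drawn with matplotlib 3.10.9.

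The alternatives changed the pseudocount (1 or 0.0001), the filter (none, or 20 CPM), the scaling (median centring, quantile normalisation, or equal totals with mitochondrially encoded genes left out), the variance model (no trend, or vooma weights), the design (a block for the replicate number) or the libraries (leaving out 1 at a time).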

Additional observations from a re-analysis of the deposited data

How the results depend on the processing

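The number of members with a nominal p under 0.05 was 2, and it was 1 (*Cd14*) with centring on the median, quantile normalisation, equal totals without mitochondrially encoded genes and eBayes without a trend, and 1 to 2 with each library left out in turn (1 without *Cnr1*+/+ replicate 3, *Cnr1*-/- replicate 1 or *Cnr1*-/- replicate 3). In these settings *Ly86* missed the threshold, with nominal p between 0.0666 and 0.104 and log2 fold changes of 0.33 (no trend), 0.30 and 0.31 (without *Cnr1*-/- replicate 1 or 3) and 0.23 to 0.25 (the others); the cause was not tested. No member reached an adjusted p under 0.1 in any of the 16 settings (adjusted p from 0.324). Of the pathway genes, 2 had a nominal p under 0.05, and this was between 0 (without *Cnr1*-/- replicate 2) and 6 (without *Cnr1*+/+ replicate 3) with libraries left out, and 1 without *Cnr1*-/- replicate 1. Without *Cnr1*-/- replicate 2 the log2 fold changes were 0.30 for *Irf5* and -0.31 for *Cd180* (0.38 and -0.34 with all libraries). With no filter the pathway genes called were *Irf5*, *Tab1* and *Tlr6*, and with vooma weights *Tlr6* was called beside *Cd180* and *Irf5*.

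Under centring, quantile normalisation and equal totals, in this order, the log2 fold change turned negative for *Tlr1* (-0.056, -0.041 and -0.080), *Tlr2* (-0.033, -0.028 and -0.057), *Tlr4* (-0.017, -0.013 and -0.040), *Tlr3* (-0.016, -0.0095 and -0.040) and *Myd88* (-0.027, -0.035 and -0.051). With libraries left out it ranged from -0.13 to 0.21 for *Tlr1*, -0.17 to 0.22 for *Tlr2*, -0.050 to 0.17 for *Tlr4*, -0.081 to 0.15 for *Tlr3* and -0.074 to 0.18 for *Myd88*.

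Over all genes, 401 had a nominal p under 0.05, and this became 993 when all 19225 genes were tested, 263 when a mean of 20 CPM was required (fewer genes tested, *Tlr1* not among them), and 251 to 600 with libraries left out. Of the 401, 84.5% were higher in the libraries labelled *Cnr1*-/-, whereas centring, quantile normalisation and equal totals called 375, 360 and 354 genes, of which 52.5%, 45.3% and 40.1% were higher (259, 225 and 204 of these genes were among the 401). Deviations of same-numbered libraries correlated at -0.056, -0.032 and -0.031 across genes, and those of differently numbered libraries at -0.0036 to 0.040. These correlations show no shared signal, but cannot settle whether the numbers pair mice, which the labels do not say. With the replicate number as a block, 421 of all genes and 2 members had a nominal p under 0.05, and 1 pathway gene (*Irf5*).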
